A study of Oryza brachyantha and Oryza sativa Japonica Group and Oryza glaberrima with 38 samples.

Results

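H3K9me2 peaks of African cultivated rice (Oryza glaberrima) were set beside those of Asian cultivated rice (O. sativa, japonica) at the tillering stage, in 1 library of each species. The 2 peak lists were chosen by their labels, from 21 libraries with a peak list among 38 in the study, whose design text names the comparison of heterochromatin between related grass genomes as its purpose. The O. glaberrima list held 18472 peaks and the O. sativa list 24310, 42782 together, all on the numbered chromosomes 1 to 12. Each list is on the assembly of its own species (tigr6 for O. sativa; the O. glaberrima assembly is named by its species only). Chromosomes were paired by number.

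Both libraries came from above-ground tissue of greenhouse plants collected 60 days after germination. In both, 8 g of tissue was fixed with 3% formaldehyde, chromatin was sheared to 300 to 500 bp, and the same antibody against histone H3 dimethylated at lysine 9 (ab1220) was used. Each had an input control. That of O. sativa also served its H3K4me3 library. The number of plants per library and the read depth were not in the labels or the lists. Since each species had 1 library, differences between the species are given as values without a test. The spread between libraries is given from 2 O. sativa seedling libraries (2 weeks; replicate 1 with an input and replicate 2 with a histone H3 control) and 2 tillering batches of the wild rice O. brachyantha.

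H3K9me2 is a mark of silent heterochromatin in plants. It is laid down by SUVH histone methyltransferases that work in a loop with non-CG DNA methylation, and it lies mostly on transposons and other repeats. In rice it is densest around the centromeres, and the short arms of chromosomes 4 and 10 are known for their heterochromatin, while chromosome 9 carries ribosomal RNA genes at the end of its short arm.

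O. glaberrima and O. sativa had nearly the same number of H3K9me2 peaks per Mb, but the peaks of O. glaberrima were narrower throughout, so that they covered a smaller share of the chromosomes. The covered share was 12.4% in O. glaberrima and 21.04% in O. sativa, against 16.7% and 18.8% in the O. sativa seedling libraries. Peak density was 64.9 per Mb in O. glaberrima and 65.3 in O. sativa, a 1.01-fold difference, and 75.9 and 71.9 in the seedling libraries. The mean peak width was 1910 bp in O. glaberrima and 3222 bp in O. sativa, a 1.69-fold difference, and 2201 and 2607 bp in the seedling libraries. Covered share is the product of density and mean width. Of the log2 coverage ratio of O. glaberrima over O. sativa of -0.76, width made up -0.755 (98.8%) and density -0.0095 (1.24%). As deposited, the O. glaberrima list lay below all 3 O. sativa lists in covered share, mean width and median width. For comparison, the covered share differed 1.12-fold between the O. sativa seedling libraries and 1.36-fold between the O. brachyantha batches (9.18% and 12.5%). Mean width differed 1.18-fold and 1.205-fold between the same pairs. Density differed 1.06-fold and 1.13-fold, more than it did between the tillering lists of O. glaberrima and O. sativa.

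These values rest on the strength at which peaks were accepted. The lowest −log10 q (the authors' significance value of a peak) was 0.436 in the O. glaberrima list, 0.504 in the O. sativa tillering list and above 1 in the seedling lists. With a common limit of 1, the covered share was 11.3% in O. glaberrima and 18.6% in O. sativa, and the mean width 2181 and 3761 bp. The density at that limit was 51.7 per Mb in O. glaberrima and 49.5 in O. sativa, so that the order of the tillering lists by density turned. At that limit the O. glaberrima width was close to that of seedling replicate 1 (2201 bp). With a limit of 2, which 28.1% of the O. glaberrima and 15.1% of the O. sativa peaks passed, the covered shares turned to 3.30% and 2.07%. The peaks that passed were still narrower in O. glaberrima (1810 against 2103 bp), at a density of 18.2 against 9.85 per Mb. In the lists used for the spread, which held only peaks above 1, more peaks passed that limit of 2. They were 55.4% and 55.1% in the O. sativa seedling lists and 65.5% and 65.0% in the O. brachyantha batches. The O. sativa tillering list thus had the lowest share of strong peaks of these lists. When peaks were taken in order of q until each list covered 5% of its chromosomes, the mean width was 2030 bp in O. glaberrima and 2846 bp in O. sativa, and the density 24.6 and 17.6 per Mb. The median pileup of reads at a peak was 6.54 in O. glaberrima and 8.44 in O. sativa, and 10.6 and 18.2 in the seedling lists. With 1 library a species, the species, its assembly, the depth of sequencing and the treatment of reads that map to several places cannot be told apart.

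The difference in width ran through the whole distribution of peaks. The median width was 872 bp in O. glaberrima and 1474.5 bp in O. sativa, and widths ranged from 128 to 62328 bp and from 145 to 76432 bp. O. sativa peaks were wider by 1.30-fold at the 5th percentile, 1.504-fold at the 25th, 1.70-fold at the 75th and 1.79-fold at the 90th. Peaks under 500 bp made up 32.2% of the O. glaberrima list (Wilson 95% interval 31.5% to 32.8%) and 20.98% of the O. sativa list (20.5% to 21.5%). Peaks of at least 20 kb numbered 45 in O. glaberrima (0.244%, interval 0.182% to 0.326%) and 327 in O. sativa (1.35%, interval 1.21% to 1.498%). These intervals cover counting error only, and not the spread between plants or libraries.

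At nearly equal peaks per Mb, O. glaberrima had more narrow peaks and fewer wide ones than O. sativa at tillering. O. glaberrima had 35.0 peaks under 1 kb per Mb, against 26.0 in O. sativa at tillering and 36.8 and 30.1 in its seedlings. Peaks of 1 to 5 kb stood at 23.7 per Mb in O. glaberrima and at 27.1 in O. sativa. Peaks of at least 10 kb stood at 1.65 per Mb in O. glaberrima, against 5.25 in O. sativa at tillering and 2.79 and 3.27 in its seedlings. In the lists as deposited, the narrow class of O. glaberrima therefore lay within the range of the O. sativa libraries, and the wide class lay below all of them. Peaks of at least 10 kb held 19.1% of the H3K9me2-covered bp in O. glaberrima and 39.2% in O. sativa at tillering, with 24.0% and 24.7% in the seedlings.

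**Figure D1:**
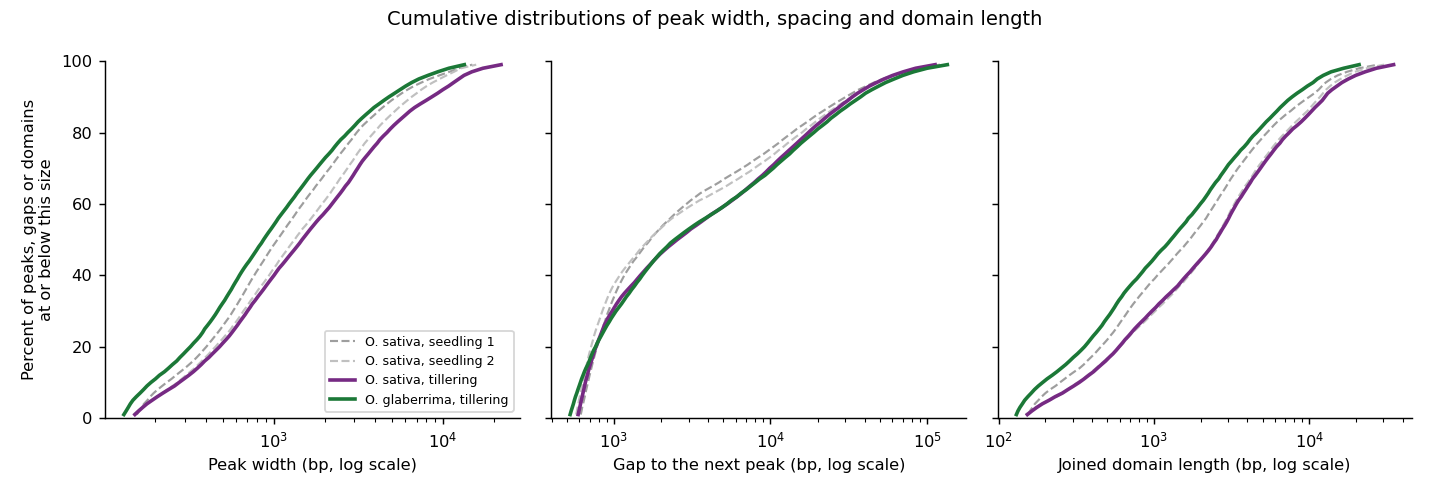
Cumulative percent of peaks, gaps and joined domains (y axis) at or below a given size in bp (x axes, log scale), with 1 line per library for O. glaberrima tillering, O. sativa tillering and the O. sativa seedling libraries (dashed). The O. glaberrima line lies to the left of all O. sativa lines for width (median 872 bp) and for domain length (median 1286 bp), while the lines of the tillering libraries nearly coincide for gaps (medians 2449 and 2538 bp).

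Spacing was close in the tillering lists of both species. The median gap between neighbouring peaks was 2449 bp in O. glaberrima and 2538 bp in O. sativa, and 1711 and 1681 bp in the O. sativa seedlings. Gap percentiles of O. sativa over O. glaberrima ran from 1.11 at the 5th and 1.04 at the 50th to 0.864 at the 95th. Gaps of at most 1 kb made up 29.1% of those in O. glaberrima (5370 of 18460) and 30.8% in O. sativa (7484 of 24298). The smallest gap was 518 bp in O. glaberrima and 586 bp in O. sativa, so closer neighbours are not told apart in these lists. Gaps varied widely in both, with a coefficient of variation of 2.02 in O. glaberrima and 2.12 in O. sativa. The O. sativa value includes a single gap of 1.78 Mb on chromosome 4, described under Other observations, where the coefficient was 3.92. Taken by chromosome, the median coefficient was 1.95 in O. glaberrima and 1.83 in O. sativa, so the order turned. Gaps of at least 50 kb numbered 1251 in O. glaberrima, where they took up 41.1% of chromosome length, and 1345 in O. sativa, where they took up 31.7%. Once peaks below a −log10 q of 2 were left out, the median gap was 17091.5 bp in O. glaberrima and 38243 bp in O. sativa.

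Joined domains, in which peaks with gaps of up to 1 kb were merged, were shorter in O. glaberrima, although as many peaks went into each. There were 13102 domains in O. glaberrima and 16826 in O. sativa, with 1.41 and 1.44 peaks per domain. Domains of a single peak were 72.6% of all in O. glaberrima and 70.1% in O. sativa, and the most peaks in a domain were 9 and 10. The median domain length was 1286 bp in O. glaberrima and 2514 bp in O. sativa. The N50, the length at and above which domains hold 50% of the domain bp, was 6961 bp in O. glaberrima against 11288 bp in O. sativa at tillering and 9064 and 10045 bp in its seedlings. O. glaberrima had the lowest N50 of the 4 lists, and the gap to O. sativa at tillering (1.62-fold) was wider than that between the seedling libraries (1.11-fold) or the O. brachyantha batches (1.05-fold, 16141 and 16875 bp). Domains of at least 10 kb numbered 871 (6.65%) in O. glaberrima and 2472 (14.7%) in O. sativa, and held 35.7% and 55.1% of the domain bp. Peaks filled 90.4% of the domain bp in O. glaberrima and 93.4% in O. sativa. With a −log10 q limit of 2 the N50 was 5069 bp in O. glaberrima and 5020 bp in O. sativa.

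The longest domain of a chromosome was longer in O. sativa on 12 of 12 chromosomes, by 1.03-fold on chromosome 2 to 3.74-fold on chromosome 10 (median 2.04-fold). These domains had a median of 44.5 kb in O. glaberrima and 79.9 kb in O. sativa. On chromosome 5 both lay at the same relative place, from 7841096 to 7887717 in O. glaberrima (46.6 kb from 2 peaks) and from 9969461 to 10110291 in O. sativa (141 kb from 7 peaks). On chromosome 7 they also shared a place, from 10170642 to 10203494 in O. glaberrima (32.9 kb) and from 13989646 to 14106069 in O. sativa (116 kb). On chromosome 8 they shared a place as well and differed 1.08-fold in length, from 9210914 to 9295783 in O. glaberrima (84.9 kb, the longest of its list) and from 12538512 to 12630084 in O. sativa (91.6 kb). The place was the same 2% of chromosome length on these 3 chromosomes, within 2 such bins on 5 of 12, and farther off on 7. On chromosome 2 the longest O. glaberrima domain lay at 24.95% of the length (7268905 to 7311671) and that of O. sativa at 88.6% (31849607 to 31893600). On chromosome 10 the longest O. sativa domain of all (3181126 to 3338096, 157 kb) lay at 13.8% of the length, and the longest of O. glaberrima on that chromosome (6387077 to 6429079, 42.003 kb from 9 peaks) at 38.0%. The genes and repeats in these domains were not analysed here.

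Chromosome by chromosome, the width difference was present throughout and the density difference had no common sign. O. sativa was higher in covered share on 12 of 12 chromosomes, by 1.28-fold on chromosome 3 to 2.03-fold on chromosome 4. Its mean width was higher on 12 of 12, by 1.42-fold on chromosome 3 to 1.85-fold on chromosome 9, and its N50 on 12 of 12, by 1.30-fold to 1.87-fold on the same chromosomes. Over the 12 chromosomes, the log2 ratio of O. glaberrima over O. sativa had a mean ± SD of -0.76 ± 0.11 for mean width and 0.01 ± 0.14 for density. O. glaberrima had the higher density on 7 of 12 chromosomes, with log2 ratios from -0.15 on chromosome 6 to 0.36 on chromosome 10. It had the longer median gap on 5 of 12. Chromosomes of 1 library share its antibody, depth and caller, and are not replicates. Against the seedling lists too, with all lists as deposited, O. glaberrima was lower in median width and N50 on 12 of 12 chromosomes. In covered share and mean width it was lower on 11 of 12 against replicate 1 and 12 of 12 against replicate 2. The seedling lists held only peaks with a −log10 q above 1, and these counts were not repeated at a common limit.

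Chromosome 3 was the exception against replicate 1, and the chromosome on which the species differed least in length, covered share, mean width and N50. In median gap they differed most there, with 2624 bp in O. glaberrima and 3748 bp in O. sativa. It had 1672 peaks in O. glaberrima and 1664 in O. sativa, the closest lengths of any pair (33.1 and 36.4 Mb), and covered shares of 11.7% and 15.0%, against 11.6% and 13.6% in the O. sativa seedlings. O. glaberrima had its widest peaks there, with a mean of 2306 bp against 3278 bp in O. sativa, and its highest N50, 8508 bp. In both species chromosome 3 had the lowest peak density, 50.6 per Mb in O. glaberrima and 45.7 in O. sativa. Chromosome 10 stood at the other end in O. glaberrima, with its highest density (94.2 per Mb, against 73.6 in O. sativa) and its highest covered share (18.1%, against 24.7%). On chromosome 4 the covered shares lay farthest apart, 12.2% in O. glaberrima and 24.7% in O. sativa.

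**Figure D2:**
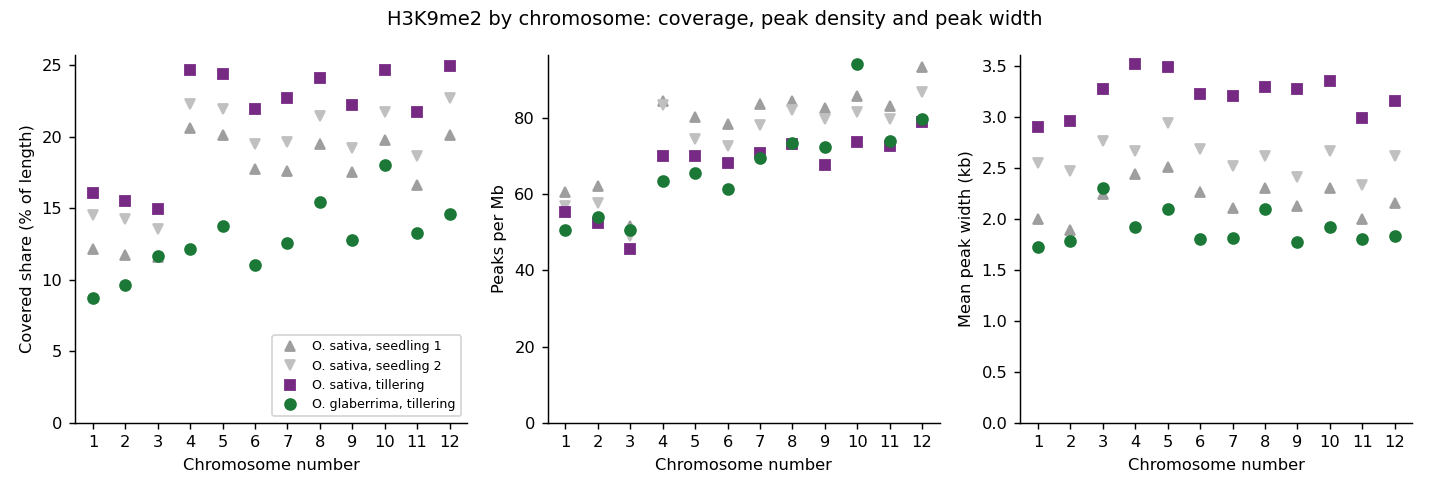
Covered share (% of length), peaks per Mb and mean peak width (kb) of each chromosome, with 1 point per library for O. glaberrima tillering, O. sativa tillering and the O. sativa seedling libraries. O. glaberrima lies below O. sativa tillering on 12 of 12 chromosomes in the first and last panels, while in the middle panel it is higher on 7 of 12, most on chromosome 10 (94.2 against 73.6 per Mb).

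The order of the chromosomes by density was largely shared. Over the 12 chromosomes, which share library and caller within a species, O. glaberrima and O. sativa had a Spearman rho of 0.902 for density (Pearson r 0.816), 0.741 for covered share (r 0.743) and 0.748 for mean width (r 0.550). Leaving out the 2 chromosomes that lay farthest from the O. glaberrima median gave an r of 0.909, 0.715 and 0.790. Longer chromosomes had fewer peaks per Mb in both species (rho of length with density -0.944 in O. glaberrima and -0.699 in O. sativa), whereas mean width had little relation with length (0.014 and -0.238).

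The O. glaberrima chromosomes, taken as the last peak end of its list, came to 285 Mb and those of O. sativa, taken over 6 lists, to 372 Mb. O. sativa chromosomes were longer by 1.10-fold on chromosome 3 to 1.44-fold on chromosome 12. Over the 12 chromosomes, the length ratio and the log2 coverage ratio of O. glaberrima over O. sativa had a rho of 0.063 and an r of -0.356, which turned to 0.507 when the 2 chromosomes of most extreme length ratio were left out, so no relation with length was settled.

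The profile of covered share along each chromosome, in 50 bins of 2% of its length, had a similar broad form in both species, with a region of high coverage and lower coverage toward the chromosome ends, on chromosomes 4, 9 and 10 mainly toward the far end. The rho between the species over the 50 bins of a chromosome was positive on 12 of 12, from 0.539 on chromosome 11 to 0.806 on chromosome 3, with a median of 0.724. Neighbouring bins are not independent. The O. sativa tillering profile had a median rho of 0.990 and 0.988 with its seedling libraries, and the O. brachyantha batches had 0.971 with each other. Profiles were thus less alike between the species than between libraries of a species. Libraries of a species share an assembly and its bins, whereas the species were paired by relative position without alignment. How far that lowers rho was not tested. With the seedling libraries of O. sativa, O. glaberrima had a median rho of 0.712 and 0.692. With a −log10 q limit of 2 for both tillering lists, the median rho between the species was 0.406.

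**Figure D3:**
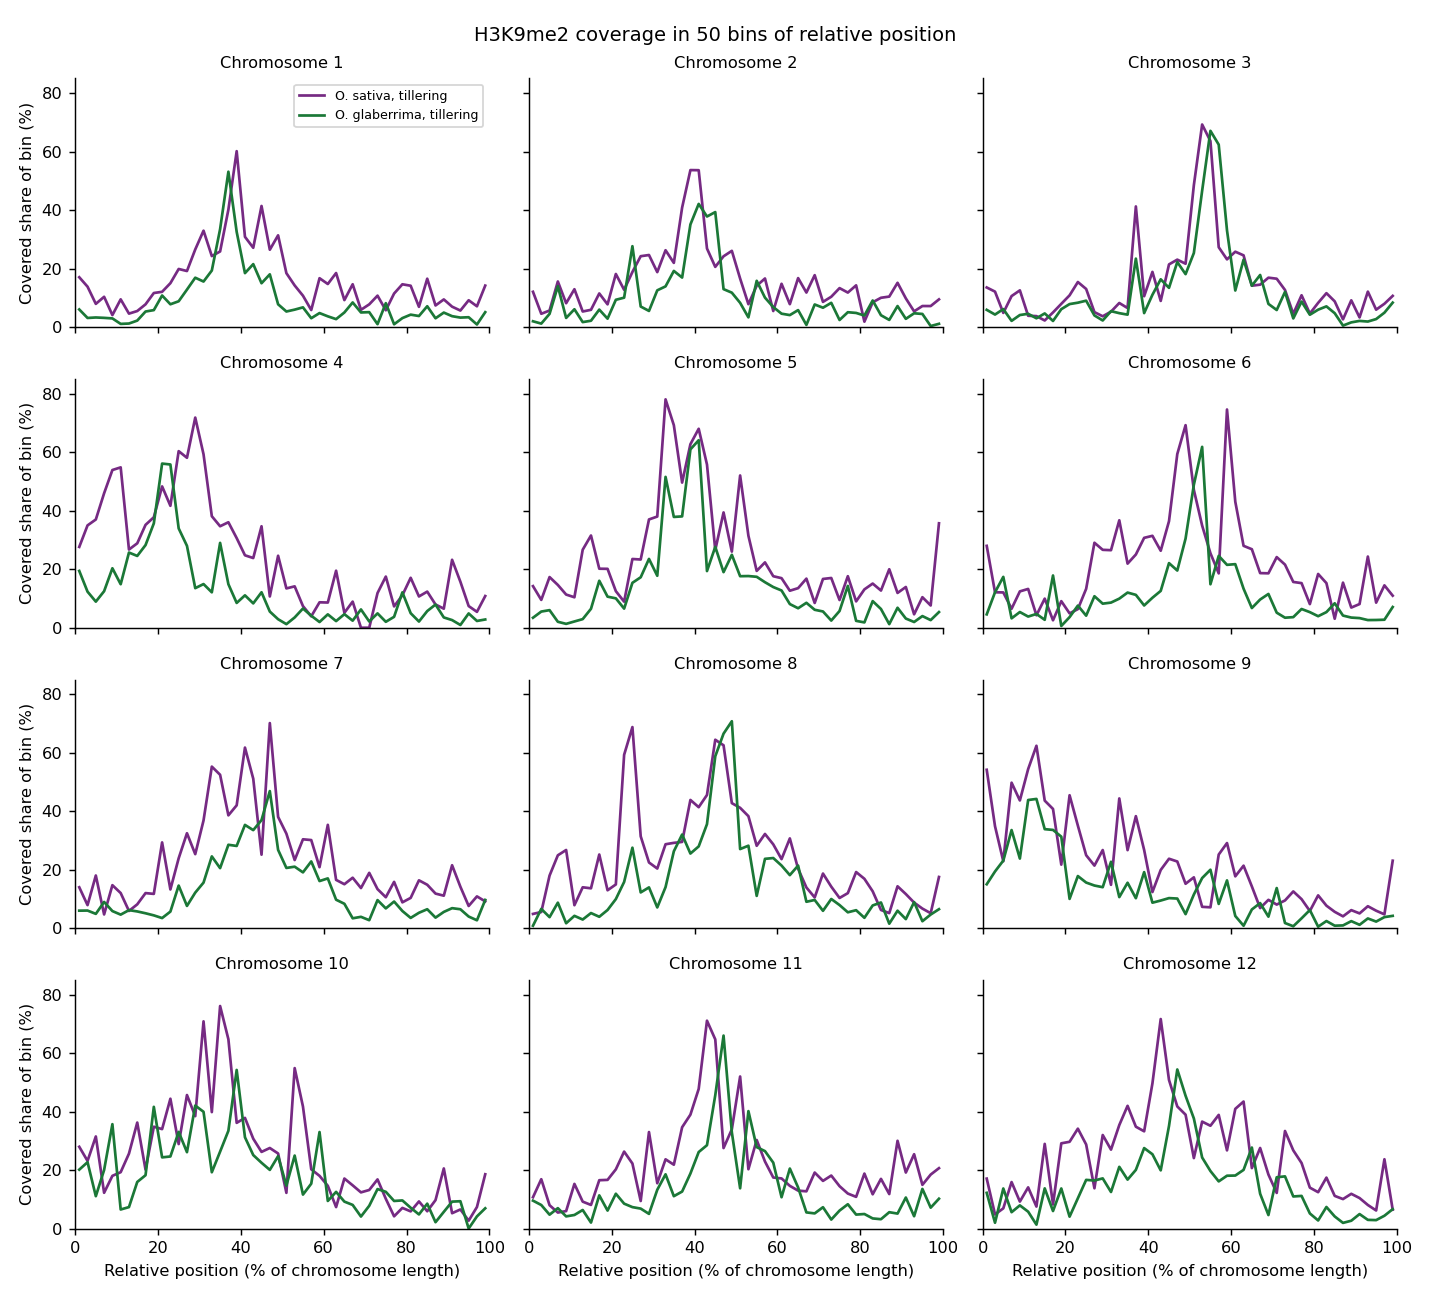
Covered share of each bin (%, y axis) along the 12 chromosomes in percent of chromosome length (x axis), 1 line each for O. sativa and O. glaberrima at tillering. The O. sativa line is the higher in 514 of 600 bins, and the highest bins of the species lie within 2 bins of each other on 8 of 12 chromosomes.

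Chromosomes of unlike number were often alike in profile too, and the same number was not always the most alike. Against the other 11 chromosome numbers of O. sativa, the median rho of an O. glaberrima chromosome ran from 0.056 (chromosome 9) to 0.641 (chromosome 8). The chromosome of its own number ranked first of the 12 on 6 chromosomes, and on chromosome 11, the lowest, it ranked 5. On chromosomes 4 and 9 the same number stood farthest above the others, with 0.730 and 0.686 against medians of 0.166 and 0.056. A small shift brought some pairs closer. Moving the O. glaberrima profile by 3 bins raised rho on chromosome 4 from 0.730 to 0.853. Moving it by 2 bins, in opposite directions, gave 0.828 on chromosome 9 and 0.856 on chromosome 10. Each shift was picked for the highest rho, with no shift among the choices, so rho could not fall. The shift with the highest rho, among shifts of up to 10 bins either way, was within 1 bin on 8 of 12 chromosomes and within 2 on 11.

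**Figure D4:**
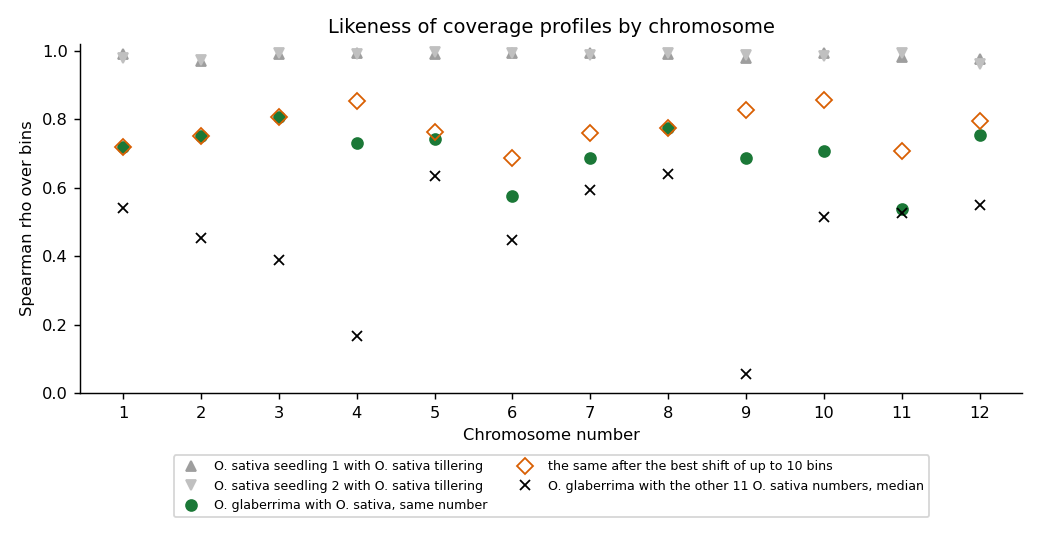
Spearman rho over the bins of each chromosome (y axis) for O. glaberrima with O. sativa of the same number, the same after the best shift, the median over the other 11 O. sativa chromosome numbers, and O. sativa tillering with its seedling libraries. The seedling points lie at or above 0.962, and the points between species at 0.539 to 0.806 before shifting.

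The H3K9me2-richest bin lay within 1 bin of the same relative place in both species on 5 of 12 chromosomes. It lay within 2 bins on 8 of 12 and farther off on the others. The highest bin was the same in both species on chromosome 7 (46 to 48% of the length, 46.9% covered in O. glaberrima and 70.1% in O. sativa) and on chromosome 9 (12 to 14%, 44.2% and 62.4% covered). It was 1 bin apart on chromosomes 1, 2 and 3. The highest coverage of any O. glaberrima bin was 70.7%, on chromosome 8 from 9740398 to 10146247 (48 to 50% of the length). O. sativa had 42.8% in that bin, and its own highest on the chromosome, 68.7%, lay 12 bins nearer the start (6824713 to 7393438), where O. glaberrima had 27.5%. O. sativa was nearly as high close to the O. glaberrima bin, with 64.4% at 44 to 46% of the length and 62.5% at 46 to 48%. The highest O. sativa bin was on chromosome 5, with 78.0% from 9566306 to 10164199, and O. glaberrima had 51.5% in the same relative bin. Relative to the mean of its own chromosome, the highest bin stood higher in O. glaberrima on 11 of 12 chromosomes, with 3.00 to 6.09 times the mean against 2.81 to 4.62 in O. sativa. That mean was lower in O. glaberrima on 12 of 12. In covered share itself, the highest bin was higher in O. sativa on every chromosome but 8.

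Over the 12 chromosomes together, H3K9me2 was more concentrated in O. glaberrima than in the O. sativa lists. The densest 10 of the 50 bins of each chromosome held 51.4% of the H3K9me2 bp in O. glaberrima, 42.4% in O. sativa at tillering and 45.5% and 42.9% in its seedlings, but 74.6% and 69.3% in the O. brachyantha batches. Chromosome 10 went the other way, with 41.1% in O. glaberrima, 41.7% in O. sativa at tillering and 45.2% and 42.5% in its seedlings. With a −log10 q limit of 2 the shares over all chromosomes were 57.3% in O. glaberrima and 55.1% in O. sativa at tillering. That difference of 2.15 points was smaller than the SD of 3.74 points between the O. brachyantha batches as deposited. Of the 120 densest bins of each species, 80 were shared by relative position, against 114 between O. sativa tillering and each seedling library, which share an assembly. With 10 of 50 bins picked on each chromosome, random picks would share some bins too, and that base was not computed. In the densest bins O. glaberrima had more peaks per Mb than O. sativa (125 against 104), with a mean width of 2553 against 4293 bp and a covered share of 31.8% against 44.6%. In the other 40 bins it had fewer peaks per Mb (49.9 against 55.6), with 1508 against 2722 bp and 7.53% against 15.1%. Coverage in O. sativa was thus 1.40-fold higher in the dense bins and 2.01-fold higher outside them, while the width ratio was alike in both (1.68 and 1.80). The densest bins were picked in each list on its own values, so that their contrast with the others is partly set by the choice.

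Bin by bin, O. glaberrima had the higher covered share in 86 of the 600 bins, from 1 on chromosome 5 to 16 on chromosome 10. Bins over 50% covered numbered 15 in O. glaberrima and 41 in O. sativa, and bins under 1% covered 14 and 2. The 2 O. sativa bins lay on chromosome 4 at 68 to 72% of the length, in the peak-free stretch described under Other observations. In those bins its seedling lists had 2.05% to 5.82%.

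Coverage at the chromosome starts was highest on the same 3 chromosomes in both species. In the first 10% of the length, chromosomes 4, 9 and 10 had the highest coverage in both, with 14.7%, 23.0% and 22.0% in O. glaberrima and 39.9%, 41.1% and 22.6% in O. sativa. The other chromosomes had 3.66% to 8.52% there in O. glaberrima and 9.23% to 16.0% in O. sativa. The start of chromosome 10 was thus nearly as covered in O. glaberrima as in O. sativa, whereas that of chromosome 4 was not. In the last 10%, chromosome 11 was highest in both, with 9.22% and 19.8%.

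The bins in which coverage relative to the species' own mean differed most lay in or beside the richest regions. Lower in O. glaberrima were bins on chromosomes 4, 6 and 12. On chromosome 4 at 28 to 30% of the length, O. glaberrima had 13.5% (7353567 to 7878821) and O. sativa 71.8% (9877869 to 10583430), with 67.7% and 64.7% in its seedlings. On chromosome 6 at 58 to 60%, the values were 21.5% (14013582 to 14496808) and 74.6% (18123132 to 18748066). On chromosome 12 at 42 to 44%, they were 20.0% (8041212 to 8424126) and 71.7% (11548348 to 12098269). Higher in O. glaberrima were bins on chromosomes 11, 3 and 8, the last being its highest bin, described above. On chromosome 11 at 46 to 48%, O. glaberrima had 66.0% (9566259 to 9982182) and O. sativa 27.6% (13113435 to 13683583), with 19.9% and 21.1% in its seedlings. On chromosome 3 at 56 to 58%, they had 62.4% (18509924 to 19170991) and 27.3% (20387744 to 21115877). On chromosomes 3, 4, 6, 11 and 12 the highest bin of the other species lay 2 to 4 bins away. On chromosome 8 it lay 12 away, although O. sativa also had 62.5% in the neighbouring bin (46 to 48%). All these differences are between relative positions and not between matched sequences, which were not aligned here.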

How the data were processed

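H3K9me2 ChIP-seq libraries were sequenced as 90 bp read pairs. The authors used Bowtie, MACS2 and bedtools, per the submitters' processing notes; versions, multi-mapped read handling and calling limits for these lists are not given in the sources used here. The deposited lists give peak positions, a pileup signal, and 3 joined values per peak (other columns), of which the −log10 q was used to filter peaks. Read depth is unknown.

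Positions on chromosomes 1 to 12 were used. Each chromosome was taken to end where its last peak ended in any list on that assembly (6 lists for O. sativa, 1 for O. glaberrima). Widths, gaps, joined domains, and coverage in 50 bins per chromosome were computed in Python 3.11.15 with numpy 2.4.6 and scipy 1.17.1, and tested on simulated peaks. No test compared the species, since each had 1 library. Alternatives were −log10 q limits, equal coverage, a minimum width, other joining gaps, bin numbers, Pearson r and windows of fixed length. Regions named are the longest domain and highest bin of each chromosome, extreme chromosomes, and the 6 bins of largest relative difference. The measures and regions were chosen with earlier results of these data known. The seedling replicates and batches are not stated to come from separate plants.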

Additional observations from a re-analysis of the deposited data

How the results depend on the processing

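Of 63 alternative values for 8 results, 36 moved by no more than the spread between libraries, 25 moved further and 2 turned. That spread was the larger SD of the O. sativa seedling and O. brachyantha pairs. For rho it was the SD of O. glaberrima with the 2 seedling lists. For the log2 median gap it was 0.421, from O. brachyantha, against 0.018 in the seedlings. The gap ratio of -0.31 at a limit of 1 therefore counted among the 36. Some of the 36 could not move. Chromosome length does not enter the width, gap and domain measures, and taking 50% of each list keeps the density ratio. The values for a joining gap of 500 bp repeat those of peaks not joined. The count is thus no measure of how firm the results are. Log2 ratios are O. glaberrima over O. sativa. With a −log10 q of at least 2, the ratio turned for covered share (0.67, from -0.76) and for domain N50 (0.014, from -0.70), and moved for density (0.89, from -0.01), mean width (-0.22, from -0.75) and median gap (-1.16, from -0.05). At the same limit, the difference in the share of domain bp in domains of at least 10 kb was -7.89 points (from -19.4), that in the densest bins 2.15 points (from 8.98), and the median rho 0.406 (from 0.724). With each list at 5% covered, the ratios were 0.49 for density, -0.49 for width, -0.77 for gap and -0.37 for N50, with -14.5 points and a rho of 0.428. That setting fixes the covered share, which has no value there. With peaks of at least 1000 bp they were -0.40 for density and -0.48 for width, with a rho of 0.704. Joining gaps of 2 and 5 kb gave -0.38 and -0.36 for N50, and -11.3 and -8.05 points. The median rho was 0.689 with a limit of 1, 0.560 with the 50% of peaks of highest q, 0.761 with 25 bins, 0.637 with 100 bins, 0.741 as Pearson's r and 0.516 in 500 kb windows from the chromosome start. Why these values moved was not tested. A joining gap of 500 bp merges nothing, since the smallest gap is 518 bp. No paired analysis was possible because each species had 1 library.

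The −log10 q grows with read depth, which is unknown, so values at higher limits compare peak strength as well as extent. O. glaberrima lengths came from 1 list, so the ends of its chromosomes beyond the last peak are missing from every share.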

Other observations

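The longest gap of the O. sativa tillering list was a stretch without a peak on chromosome 4 from 23759214 to 25537935 (1.78 Mb, 67.3% to 72.4% of the length), singled out after its values were seen. The next longest gap of that list was 532 kb, and the longest of O. glaberrima was 604 kb, on chromosome 2. In the same stretch the O. sativa seedling H3K9me2 lists had 55 and 63 peaks, covering 3.56% and 5.58%, and the tillering H3K4me3 list had 218 peaks. The authors' peak numbers ran on from 8071 to 8072 across it, and the peaks on either side had a pileup of 12.4 and 10.01. Without the stretch, H3K9me2 covered 26.0% of O. sativa chromosome 4 in place of 24.7%, which leaves chromosome 4 the one with the widest difference between the species.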
